A study of Mus musculus with 16 samples.

Results

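The promoter contacts of 10 genes that write, read or erase DNA methylation were followed through 4 mouse cell lines and 2 stages. The genes were Dnmt1, Dnmt3a, Dnmt3b, Dnmt3l, Uhrf1, Zfp57, Tet1, Tet2, Tet3 and Tdg. They were found by name among the captured promoter fragments, and each gene had 1 fragment, giving 10 of 20017 fragments in the table. These fragments carried 91 of the 260860 listed contacts, and no other gene name stood on any of them. No contact of another promoter had one of these fragments as its other end.

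Promoter-capture Hi-C ligates HindIII-cut DNA fragments that lie close together in fixed nuclei and then enriches the ligation products that contain promoters. It was applied to embryonic stem cells (ESC) grown in 2i and Lif, a medium that holds them in the naive state, at day 0, and to epiblast-like cells (EpiLC) made from them, at day 2. In DNMT_KO the genes Dnmt1, Dnmt3a and Dnmt3b were all knocked out, and DNMT_WT is its wild-type parent. In TET_KO the genes Tet1, Tet2 and Tet3 were all knocked out, and TET_WT is its wild-type parent. The 8 groups of line and stage have 2 replicates each in the labels, but the scores come as 1 column per group. Each genotype was therefore represented by 1 line, and line and genotype cannot be told apart. The sources used here do not say which exons the knock-outs lack, so whether a fragment lies in or beside a deletion was not tested. Contact scores hold no expression values, so neither the cell type labels nor the knock-outs could be checked against marker or target transcripts.

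DNA methylation in mammals is set on cytosines of CpG pairs. Dnmt3a and Dnmt3b place new methyl groups, Dnmt3l is their catalytically inactive helper, and Dnmt1 copies the pattern after replication, guided by Uhrf1, which binds hemimethylated DNA. Zfp57 is a zinc finger protein that keeps the methylated allele of imprinting control regions methylated. The Tet enzymes oxidise 5-methylcytosine, and the glycosylase Tdg cuts out oxidised forms. Naive ESC in 2i carry little DNA methylation and gain it on the way to EpiLC.

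The letters of 4 promoters show how far the CpG content of these genes ranges. They are those of the promoters described at greatest length: Tet2 and Tet3, whose values were lower in EpiLC, and Uhrf1 and Zfp57, whose values were higher there, none past the threshold of the test. For each gene the RefSeq promoter (GRCm38.p6, 250 bases before to 50 after the start) with the most CpG on the captured fragment is given 5′ to 3′, with every CpG in capitals.
Tet2, chr3:133544341-133544640, minus strand: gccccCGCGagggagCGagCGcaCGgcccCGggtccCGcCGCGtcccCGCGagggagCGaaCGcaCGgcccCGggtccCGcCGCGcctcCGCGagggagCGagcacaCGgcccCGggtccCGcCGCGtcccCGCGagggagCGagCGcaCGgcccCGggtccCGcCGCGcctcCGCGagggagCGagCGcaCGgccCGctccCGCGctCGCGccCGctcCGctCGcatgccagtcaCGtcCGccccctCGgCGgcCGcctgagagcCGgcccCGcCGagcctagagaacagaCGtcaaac
Tet3, chr6:83441629-83441928, minus strand: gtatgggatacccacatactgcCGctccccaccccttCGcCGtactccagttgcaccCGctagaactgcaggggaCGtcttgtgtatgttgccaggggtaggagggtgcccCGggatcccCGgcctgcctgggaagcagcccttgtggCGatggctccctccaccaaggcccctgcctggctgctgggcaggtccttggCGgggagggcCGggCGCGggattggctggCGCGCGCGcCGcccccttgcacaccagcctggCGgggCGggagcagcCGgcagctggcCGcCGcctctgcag
Uhrf1, chr17:56304063-56304362, plus strand: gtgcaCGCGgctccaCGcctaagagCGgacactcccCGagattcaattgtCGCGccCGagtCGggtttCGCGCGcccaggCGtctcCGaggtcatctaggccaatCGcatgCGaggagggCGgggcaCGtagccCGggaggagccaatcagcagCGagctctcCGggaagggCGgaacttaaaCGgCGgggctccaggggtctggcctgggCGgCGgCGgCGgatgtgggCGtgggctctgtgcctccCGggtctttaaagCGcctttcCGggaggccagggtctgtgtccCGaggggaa
Zfp57, chr17:37002275-37002574, plus strand: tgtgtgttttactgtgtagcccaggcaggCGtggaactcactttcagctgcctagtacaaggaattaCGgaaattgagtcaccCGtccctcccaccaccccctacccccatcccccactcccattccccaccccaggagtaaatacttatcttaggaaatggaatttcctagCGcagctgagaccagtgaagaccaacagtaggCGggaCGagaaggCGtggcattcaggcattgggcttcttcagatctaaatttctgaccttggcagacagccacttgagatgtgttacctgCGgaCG
The Tet2 promoter held 57 CpG in 300 bases, and 99.8% of the 32851 promoters of the RefSeq table held fewer. Uhrf1 had 33, Tet3 22 and Zfp57 9, against a median of 7 over all promoters. Among the other members the richest entry held 47 CpG for Dnmt3a, 33 for Dnmt1, 30 for Dnmt3b, 26 for Tdg, 17 for Tet1 and 6 for Dnmt3l. So the gene of the helper Dnmt3l and the gene of the imprint keeper Zfp57 had the CpG-poorest promoters of the 10.

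All 10 symbols matched the promoter table, with 19 entries in all, and 14 of these starts lay on the captured fragment. The starts of the 3 Dnmt3a entries lay off its fragment, the nearest by 740 bp. The annotated Dnmt3a gene itself begins on the fragment, at chr12:3801559. The captured Tet1 fragment lay 8271 bp from the annotated gene and 8416 bp from its start, so its contacts are those of the neighbouring stretch that carries the Tet1 name. Searched on both strands, TGCCGC, the letters of the Zfp57 binding motif, stood in 3 of the 19 entries (both overlapping Dnmt3a entries and Tet3) and in 11.6% of all promoters. GGGCGG, a GC box, stood in 12 of 19 against 35.7%, and CCAAT in 7 of 19 against 37.4%. Matches of TGCCGC and GGGCGG can share letters. The HindIII site AAGCTT stood in 0 of the 19 and in 7.46% of all promoters. For the 14 entries on captured fragments this was fixed in advance, because a HindIII-cut fragment holds no uncut site.

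The value analysed is the CHiCAGO score, which weighs the reads joining a promoter to another fragment against those expected at that distance, and 5 is the usual calling threshold. Each listed contact reaches 5 in at least 1 column, so a contact that is low elsewhere had to differ between columns. The scores come from bulk cells, so more cells with a contact and more frequent contact in each cell cannot be told apart. Over all promoters, 83200 to 100796 contacts reached 5 per column, with the lowest count in DNMT_KO ESC and the highest in TET_KO EpiLC. Sequencing depth per column is unknown. Of the 91 contacts, 90 lay on the promoter's own chromosome, and 85 lay within 500 kb. Their median distance was 160.7 kb, against 274.6 kb over all contacts. Contacts at 5 or more in 1 column only numbered 40 of 91 (44.0%, against 44% of all), and 5 reached 5 in all 8 columns (5.49%, against 6.7% of all). The highest score of 39 contacts (42.9%) stayed under 6, against 37.6% of all. The contacts of these genes thus stood close to the general table in how often they recurred.

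**Figure D1:**
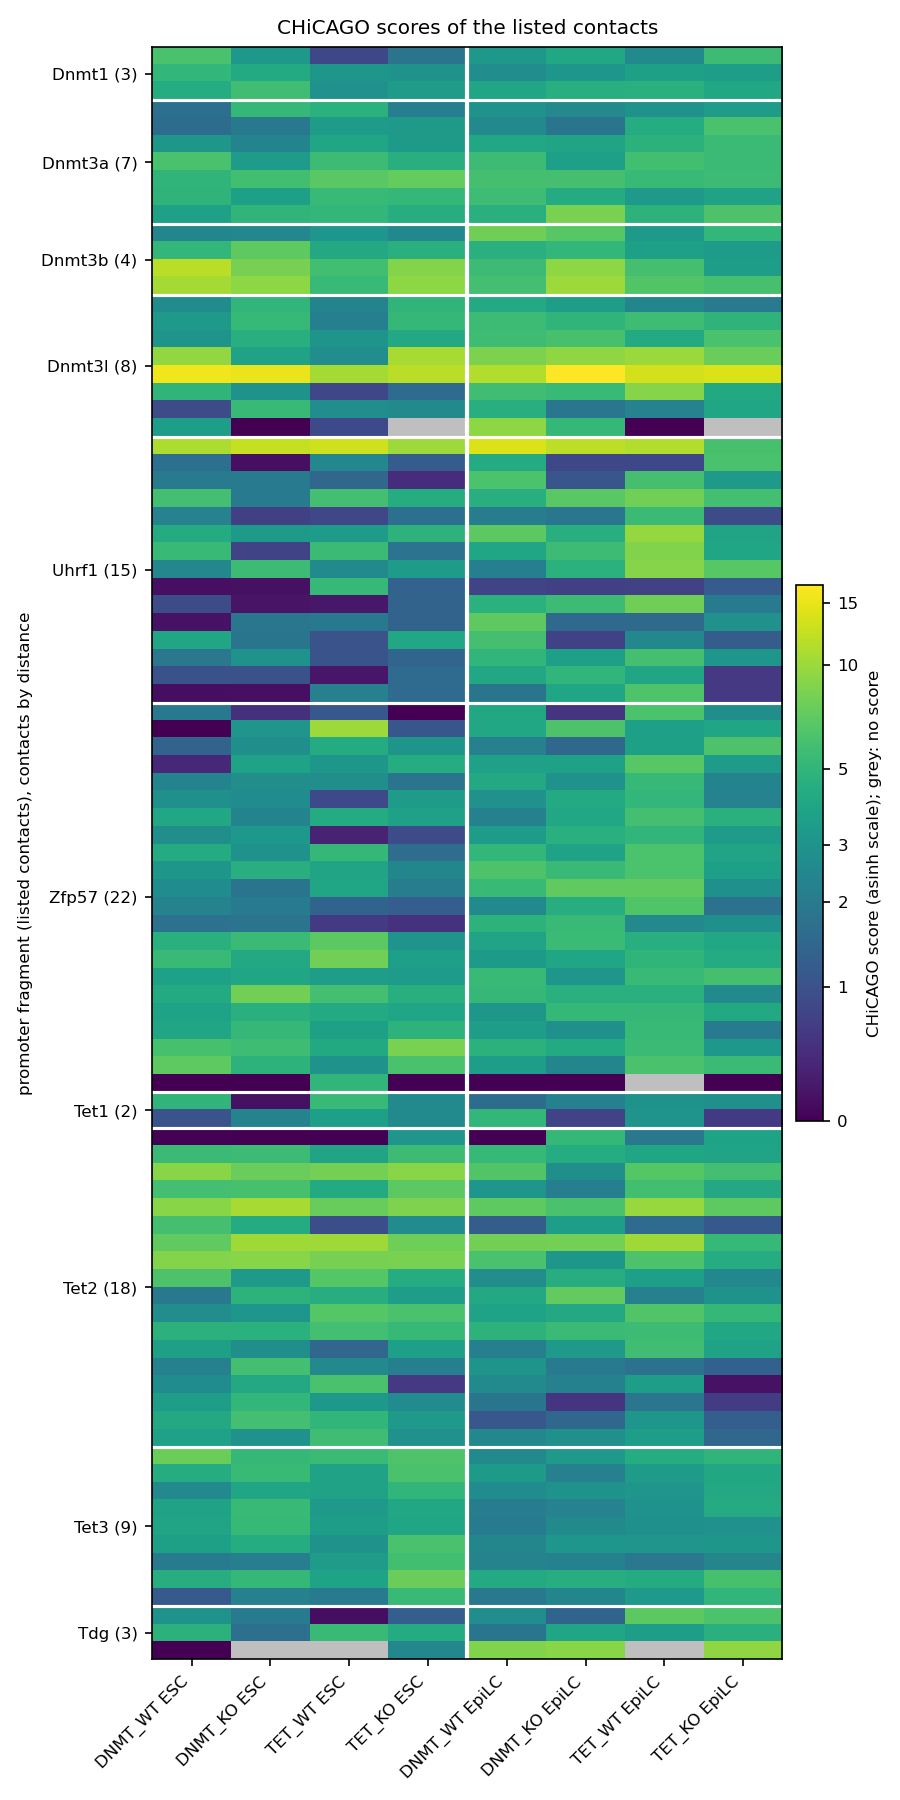
Heat map of the CHiCAGO score (colour, asinh scale) of the 91 listed contacts (rows, grouped by promoter and ordered by distance) in the 8 columns of line and stage. Grey marks a missing score. The brightest rows are 1 contact each of Dnmt3l and Uhrf1, and in EpiLC no Tet3 row exceeds 5 outside TET_KO.

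The numbers of contacts per promoter differed widely. Zfp57 had 22, Tet2 18, Uhrf1 15, Tet3 9, Dnmt3l 8, Dnmt3a 7, Dnmt3b 4, Dnmt1 and Tdg 3 each and Tet1 2, against a median of 8 over all fragments. Summed over the 10 promoters, contacts at 5 or more numbered 23, 30, 30 and 25 in ESC, then 30, 28, 42 and 26 in EpiLC, in the order DNMT_WT, DNMT_KO, TET_WT and TET_KO. The EpiLC count was higher in 3 of 4 lines, by 7 in DNMT_WT, 12 in TET_WT and 1 in TET_KO, and was 2 lower in DNMT_KO. The mean difference of 4.5 was smaller than its SD over lines (6.245, n = 4), and the stages overlapped. The order of the stages depended on the threshold. At a score of 3 or more the counts were 54 to 58 in ESC and 60 to 70 in EpiLC, higher in EpiLC in all 4 lines and without overlap. At 7 or more the EpiLC count differed from the ESC count by -8 in TET_KO, 4 in TET_WT, -2 in DNMT_WT and 0 in DNMT_KO. Over all promoters the count at 5 or more was also higher in EpiLC in every line. It was 87554, 83200, 86557 and 93568 in ESC, then 87991, 89709, 93930 and 100796 in EpiLC, in the same order of lines as above. Counts over all promoters at 3 or more are not given here.

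No contact of these genes passed the test between the stages. In limma's fit over 244865 contacts, with line as a block, 0 of 88 tested contacts had an adjusted p under 0.05 (0.315% of all contacts did), while at an unadjusted p under 0.05 limma found 8 higher and 6 lower in EpiLC, against 8.35% and 8.26% of all, or 14 of 88 against 16.6%. The median difference, on the quantile-normalised asinh scale of the score, was 0.02 over the 88 contacts and -0.0049 over all. The 4 EpiLC scores lay all above the 4 ESC scores for 5 contacts (4.85% of all contacts) and all below for 6 (3.79% of all), 11 of 88 together, against 8.64% of all contacts. The contacts above belonged to Dnmt3b, Uhrf1 and Zfp57, and those below to Tet2 and Tet3.

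The same held for whole promoters, whose value is the mean normalised asinh score over the listed contacts. A contact that is listed through columns of a single stage raises the value of that stage. Of the 8 promoters with at least 3 fully scored contacts, 0 passed limma's adjusted p of 0.05 between the stages, against 8.87% of all 15677 promoters. At an unadjusted p under 0.05 limma found 3 higher (Uhrf1, Dnmt3l, Zfp57) and 2 lower (Tet2, Tet3) in EpiLC, against 12.3% and 15.3% of all promoters, or 5 of 8 against 27.6%. Tet2 alone of the 8 had stages that did not overlap. Of all promoters 7.48% lay all lower in EpiLC as Tet2 did and 6.08% all higher, 13.6% together. The median difference over the 8 was 0.06, and over all promoters -0.01.

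**Figure D2:**
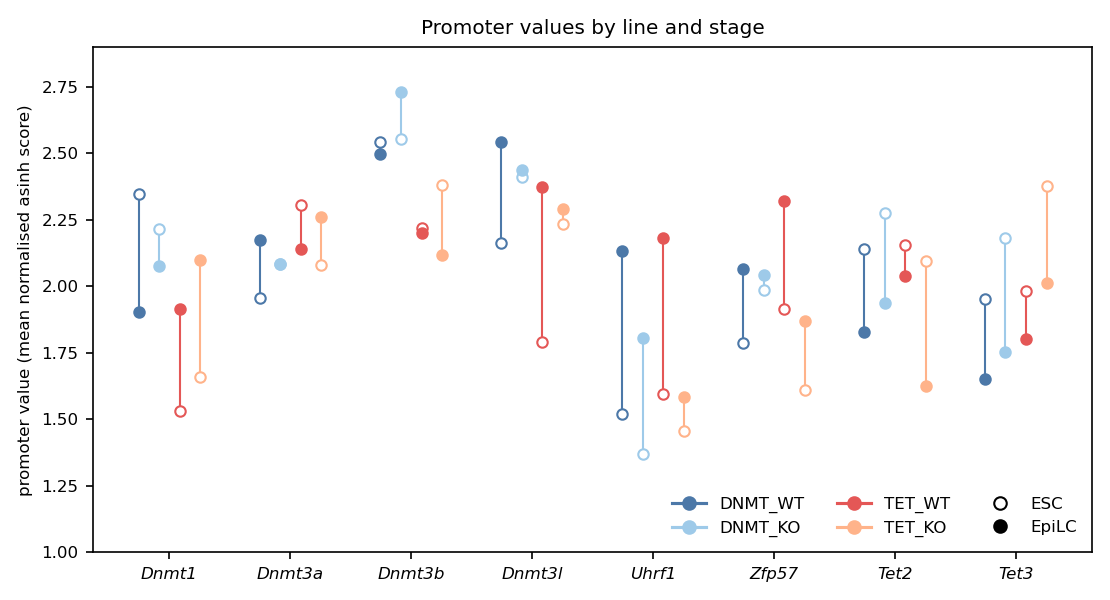
Promoter value (mean quantile-normalised asinh score over listed contacts) of the 8 tested promoters, with open points for ESC, filled points for EpiLC and 1 colour per line; a line joins the stages of a cell line. Uhrf1 and Zfp57 were higher and Tet2 and Tet3 lower in EpiLC in all 4 lines, and Dnmt1 went opposite ways in the DNMT and TET lines.

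Dnmt3b, a de novo methyltransferase, had 4 contacts, all upstream of the gene in the stretch towards Commd7. Measured between fragment midpoints they lay 15.5 to 54.3 kb away, and the nearest lay 3617 bp from the annotated gene. The captured Dnmt3b fragment (chr2:153648525-153673001, 24477 bp) was the longest of the 10. In what follows, scores are listed in the order DNMT_WT, DNMT_KO, TET_WT and TET_KO. The strongest contact (chr2:153644815-153645794, 15.5 kb upstream, intergenic) scored 10.49, 9.22, 5.36 and 9.35 in ESC, then 5.84, 10.05, 6.46 and 6.02 in EpiLC. All 8 columns reached 5, and the stages overlapped.

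The farthest Dnmt3b contact had higher scores in EpiLC. The intergenic fragment chr2:153604752-153608202, 54.3 kb upstream and 8728 bp from the nearest coding gene, Commd7, scored 2.41, 2.44, 3.1 and 2.49 in ESC, then 7.87, 6.73, 3.26 and 5.12 in EpiLC. It was under 5 in every ESC column and reached 5 in 3 of 4 EpiLC columns, and the stages did not overlap. TET_WT EpiLC lay only just above TET_WT ESC. The difference was 0.66 ± 0.25 (SE), with a limma adjusted p of 0.203. The 2 contacts in between, at 19.6 and 17.03 kb, went the other way, by -0.24 and -0.38, with adjusted p of 0.559 and 0.312. As a whole the promoter's value was 2.42 ± 0.16 (SD, n = 4 columns) in ESC and 2.39 ± 0.28 (SD, n = 4) in EpiLC, a difference of -0.04 ± 0.09 (limma adjusted p 0.835).

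Dnmt3a, the other de novo methyltransferase, had 7 contacts in 2 clusters. Downstream, 4 neighbouring fragments 270.9 to 277.9 kb away lay between genes, next to Dnajc27 and Efr3b. Upstream, 3 fragments 130.0 to 189.2 kb away lay in Dtnb, which codes for a dystrobrevin. The strongest contact (chr12:4075173-4076471, 273.4 kb downstream) scored 4.99, 5.79, 6.82 and 7.35 in ESC, then 5.93, 5.96, 5.32 and 5.54 in EpiLC. It reached 5 in all columns but DNMT_WT ESC, and the stages overlapped. The farthest recurring one, 277.9 kb downstream and 491 bp from Dnajc27, scored 3.67, 4.99, 5.09 and 4.43 in ESC, then 4.65, 8.27, 4.86 and 6.27 in EpiLC, with the highest value in DNMT_KO EpiLC. The Dtnb contacts were weaker, and each reached 5 in 1 column only, 2 of them in TET_KO EpiLC. The promoter's value was 2.11 ± 0.15 (SD, n = 4 columns) in ESC and 2.16 ± 0.07 (SD, n = 4) in EpiLC, and it differed by 0.06 ± 0.10 (limma adjusted p 0.755). The difference was 0.0038 without DNMT_WT, 0.0152 without TET_KO and 0.13 without TET_WT.

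Dnmt1, the maintenance methyltransferase, had 3 contacts, all in the downstream direction on its 16762 bp fragment (chr9:20952453-20969214). The 2 nearest, 9.7 and 10.7 kb away, lay in the body of Dnmt1 itself. The nearest scored 4.35, 5.72, 2.87 and 3.4 in ESC, then 3.98, 4.51, 4.6 and 4.08 in EpiLC, so that DNMT_KO ESC alone reached 5. The third lay 61.0 kb away, 653 bp from Eif3g, a translation initiation factor subunit, and scored 6.13, 3.18, 0.844 and 1.81 in ESC, then 3.21, 4.09, 2.6 and 5.53 in EpiLC. Its high columns, DNMT_WT ESC and TET_KO EpiLC, shared neither line nor stage. The promoter's value was 2.35, 2.22, 1.53 and 1.66 in ESC, then 1.91, 2.08, 1.91 and 2.10 in EpiLC. It was lower in EpiLC in both DNMT lines and higher in both TET lines, and the mean difference was 0.06 ± 0.14 (limma adjusted p 0.828). The direction of that mean depended on the lines used: without TET_KO it was -0.07 and without TET_WT -0.05.

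Dnmt3l, the helper of the de novo enzymes, held the highest scores of all 91 contacts. All its 8 contacts lay downstream, 7 of them 93.7 to 160.3 kb away around Gatd3a, Pwp2 and Trappc10. The strongest, chr10:78167096-78170911, is itself a captured promoter fragment, named D10Jhu81e in the table, and overlaps Gatd3a and Pwp2 in RefSeq. It lay 123.6 kb away and scored 15.7, 15.3, 10.46 and 11.7 in ESC, then 11.3, 16.9, 13.3 and 14.1 in EpiLC, above 10 in every column, with overlapping stages.

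Around that contact, 2 Dnmt3l contacts varied more. The fragment in Gatd3a 116.1 kb away scored 9.5, 3.71, 2.71 and 10.7 in ESC, then 8.43, 9.4, 9.91 and 7.56 in EpiLC. In ESC it was high in DNMT_WT and TET_KO and under 4 in the other two lines, whereas all 4 EpiLC columns exceeded 7. The fragment in Pwp2 125.8 kb away scored 4.93, 2.93, 0.824 and 1.56 in ESC, then 5.68, 5.37, 8.85 and 4.17 in EpiLC, a difference of 0.88 ± 0.28 (limma adjusted p 0.15), which was 0.52 without TET_WT. It was higher in EpiLC in every line, but DNMT_WT ESC exceeded TET_KO EpiLC. The count of Dnmt3l contacts at 5 or more was 2, 4, 1 and 3 in ESC, then 6, 5, 4 and 3 in EpiLC, with the same number at both stages in TET_KO and more in EpiLC in the other lines.

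As a whole the Dnmt3l promoter's value was 2.15 ± 0.26 (SD, n = 4 columns) in ESC and 2.41 ± 0.11 (SD, n = 4) in EpiLC. It was higher in EpiLC in all 4 lines, by 0.26 ± 0.10, with a limma adjusted p of 0.114. Leaving out 1 line, the difference ran from 0.15 without TET_WT to 0.39 without TET_KO. The difference was 0.58 in TET_WT and 0.38 in DNMT_WT, and it was 0.06 in TET_KO and 0.02 in DNMT_KO. Whether it differs between the wild-type and knock-out lines was not tested.

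The eighth Dnmt3l contact had missing scores. It joined the promoter to a fragment 1624.1 kb away (chr10:79668048-79670920) over Madcam1 and Tpgs1, captured under the name Gm16517. It scored 3.51, 0 and 0.867 in DNMT_WT, DNMT_KO and TET_WT ESC and 9.23, 5.17 and 0 in the same lines in EpiLC. Neither TET_KO column gave a score. The other 34 promoters listing this fragment had no TET_KO score either.

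**Figure D3:**
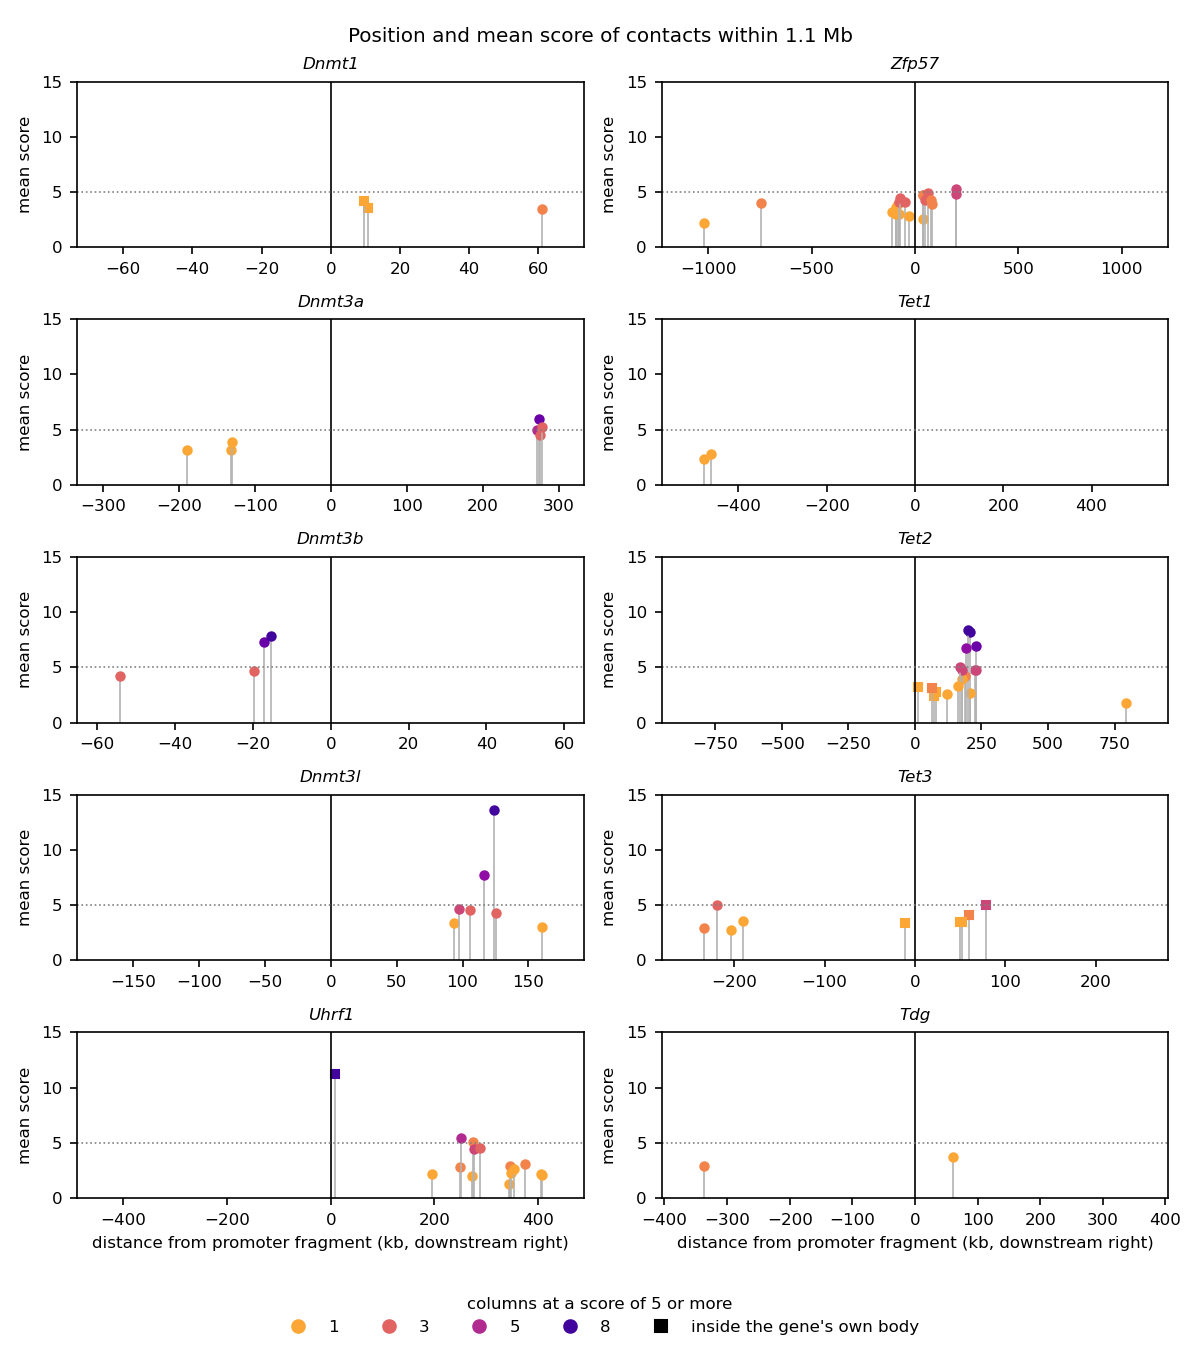
Mean score over the scored columns (y axis) of each contact within 1.1 Mb against its distance from the promoter fragment (x axis, kb, downstream of the gene to the right), 1 panel per gene; colour gives the number of columns at 5 or more, squares lie in the gene's own body, and the dotted line marks 5. Contacts of Tet2, Uhrf1 and Dnmt3l lie on the downstream side and those of Dnmt3b and Tet1 on the upstream side.

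Uhrf1, the guide of Dnmt1, had 15 contacts, all downstream. Among promoters with at least 15 contacts on their own chromosome, 28.2% had all of them on 1 side. The strongest contact (chr17:56312621-56314823) lay 7.29 kb away in the body of Uhrf1 and scored 11, 12.5, 13 and 10.1 in ESC, then 14, 11.9, 11.3 and 6.01 in EpiLC. It exceeded 10 in every column except TET_KO EpiLC. It was lower in TET_KO than in TET_WT at both stages, with a difference of -0.50 over the stages (limma unadjusted p 0.037, adjusted p 0.639).

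The other 14 Uhrf1 contacts lay 195.2 to 407.4 kb away, near or in Znrf4, Safb2, Safb, Catsperd, Ranbp3 and Vmac. The contact in Catsperd, a sperm ion channel subunit, at 345.9 kb (chr17:56651979-56652587) scored 0.909, 0.191, 0.226 and 1.38 in ESC, then 4.72, 5.53, 7.91 and 2.02 in EpiLC. All ESC scores were under 1.5 and all EpiLC scores above 2, so the stages did not overlap. The difference of 1.49 ± 0.42 had a limma adjusted p of 0.11, the smallest of the 88 contacts in the stage comparison. The contact in Ranbp3 at 374.8 kb, the farthest that reached 5 in more than 1 column, scored 1.9, 2.99, 1.05 and 1.41 in ESC, then 5.03, 3.6, 5.97 and 3.11 in EpiLC. Its stages did not overlap either, with a difference of 0.78 ± 0.31 (limma adjusted p 0.234).

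The number of Uhrf1 contacts at 5 or more was 3, 2, 4 and 1 in ESC, then 6, 5, 10 and 4 in EpiLC. Every line had more in EpiLC than in ESC, and TET_WT EpiLC had the most. The promoter's value was 1.52, 1.37, 1.60 and 1.46 in ESC, then 2.13, 1.81, 2.18 and 1.58 in EpiLC. The mean was 1.49 ± 0.10 (SD, n = 4 columns) in ESC and 1.93 ± 0.28 (SD, n = 4) in EpiLC, a difference of 0.44 ± 0.15 with a limma adjusted p of 0.0774. This was the largest stage difference of the 8 promoters. Without scaling between columns the difference was 0.55 and the limma adjusted p 0.0438, which is past the threshold. That fit called 905 of all 15677 promoters higher in EpiLC and 442 lower, against 585 and 806 in the main fit. The stages overlapped in the scaled values, because TET_KO EpiLC (1.58) lay just under TET_WT ESC (1.60). Most Uhrf1 contacts, such as those at 249.56, 275.11 and 345.85 kb, reached 5 in EpiLC columns only, so the listing favoured a higher value in EpiLC.

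Zfp57, the imprint keeper, had the most contacts, 22, on both sides of its fragment (chr17:36998368-37004394). Upstream lay 12, among them fragments in Trim40 and Trim31, and near Rnf39, Ppp1r11 and Znrd1. Downstream lay 10, of which 9 were in or near Gabbr1, a GABA receptor subunit gene, and the olfactory receptor genes Olfr90 and Olfr94. No Zfp57 contact reached 5 in all 8 columns. The highest mean belonged to an intergenic fragment near Olfr94, 199.3 kb downstream, which scored 6, 5.64, 4.18 and 8.35 in ESC, then 4.76, 4.25, 5.47 and 3.2 in EpiLC. The 2 contacts whose EpiLC scores were all above ESC lay 79.5 kb upstream and 38.6 kb downstream. The latter (chr17:37039820-37040149, 330 bp, intergenic, by Gabbr1 and Mog) scored 1.74, 1.82, 0.635 and 0.528 in ESC, then 4.82, 5.35, 2.54 and 2.83 in EpiLC, a difference of 0.99 ± 0.37 (limma adjusted p 0.201). Its 4 ESC scores were all under 2, and its EpiLC scores reached 5 in DNMT_KO only.

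The farthest Zfp57 contact at 5 or more in at least 2 columns spread widely in ESC. It joined the promoter to the captured promoter fragment of Rpp21, an RNase P subunit gene, 743.6 kb upstream, and scored 0, 3.07, 10.2 and 1.1 in ESC, then 4.06, 6.33, 3.57 and 3.92 in EpiLC. DNMT_WT ESC was at 0 while TET_WT ESC reached 10.2. A contact 19871.6 kb away with Acsbg2 scored 5.02 in TET_WT ESC, had no score in TET_WT EpiLC and was 0 in the other 6 columns. Zfp57 contacts at 5 or more numbered 3, 4, 6 and 2 in ESC, then 5, 6, 15 and 3 in EpiLC, with TET_WT EpiLC far above the others. The promoter's value was 1.82 ± 0.16 (SD, n = 4 columns) in ESC and 2.07 ± 0.19 (SD, n = 4) in EpiLC, a difference of 0.25 ± 0.11 (limma adjusted p 0.165), and it was higher in EpiLC in all 4 lines. Most Zfp57 contacts reached 5 in EpiLC columns only, so the listing favoured a higher value in EpiLC.

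Tet1, a Tet enzyme present in naive ESC, had 2 listed contacts, both upstream and intergenic near Dnajc12. The contact at 462.9 kb scored 4.94, 0.157, 5.39 and 2.57 in ESC, then 1.59, 2.25, 2.92 and 2.85 in EpiLC. The contact at 478.5 kb scored 1.03, 2.3, 3.57 and 2.59 in ESC, then 5.11, 0.787, 3.01 and 0.637 in EpiLC. Each reached 5 in 1 column only, the first in TET_WT ESC and the second in DNMT_WT EpiLC, and with 2 contacts the promoter was not tested as a whole. At both stages both contacts were lower in TET_KO than in TET_WT, as were 25.9% of all contacts. For the contact at 462.9 kb the lower TET_KO score in ESC was set by the listing.

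Tet2 had 18 contacts, all downstream: 4 in the body of Tet2, 11 in the neighbouring gene Ppa2, an inorganic pyrophosphatase of mitochondria, 2 between genes and 1 in Tbck, 793.7 kb away. The Ppa2 contacts, 169.0 to 230.8 kb away, carried the high scores. The strongest (chr3:133344706-133345838, 200.1 kb away) scored 7.12, 10.3, 10.3 and 7.75 in ESC, then 7.95, 8.05, 10.2 and 5.28 in EpiLC. The fragment at 208.6 kb scored 9, 10.6, 7.44 and 8.49 in ESC, then 7.07, 6.14, 9.84 and 7.01 in EpiLC. Both were at 5 or more in all 8 columns, with overlapping stages. The farthest contact at 5 or more in more than 1 column, at 230.8 kb, scored 5.48, 5.52, 3.83 and 5.55 in ESC, then 5.27, 4.39, 3.94 and 3.84 in EpiLC.

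Within Ppa2, 2 other Tet2 contacts had lower scores in EpiLC without overlap. The fragment chr3:133353793-133355822, 190.5 kb away, scored 8.75, 9.05, 8.23 and 8.36 in ESC, then 6.11, 3.15, 6.33 and 4.39 in EpiLC. Its ESC scores lay within 1 unit of each other and all above the EpiLC scores. The difference was -0.59 ± 0.18 (limma adjusted p 0.125). The fragment at 228.5 kb scored 8.98, 7.54, 8.13 and 8.97 in ESC, then 6.45, 2.81, 6.62 and 5.89 in EpiLC, a difference of -0.49 ± 0.17 (limma adjusted p 0.18), with DNMT_KO EpiLC the lowest. Without DNMT_KO the difference was -0.32.

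The contacts inside Tet2 were weaker and were also lower in EpiLC. The fragment 62.3 kb away (chr3:133482463-133483580) scored 4.15, 5.85, 5.02 and 3.27 in ESC, then 1.1, 1.47, 3.1 and 1.26 in EpiLC. The fragment 70.4 kb away (chr3:133473621-133476218) scored 3.54, 5.12, 3.18 and 2.66 in ESC, then 1.85, 0.566, 1.88 and 0.654 in EpiLC. At neither did the stages overlap, and the differences were -1.02 ± 0.32 and -1.10 ± 0.40, with limma adjusted p of 0.138 and 0.192. No EpiLC column reached 5 at any contact within Tet2.

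Over all its contacts the Tet2 promoter's value was 2.14, 2.28, 2.15 and 2.10 in ESC, then 1.83, 1.94, 2.04 and 1.63 in EpiLC. Every ESC value lay above every EpiLC value. The mean was 2.17 ± 0.08 (SD, n = 4 columns) in ESC and 1.86 ± 0.18 (SD, n = 4) in EpiLC, a difference of -0.31 ± 0.11 with a limma adjusted p of 0.0748. Contacts at 5 or more numbered 8, 9, 10 and 8 in ESC, then 5, 5, 8 and 4 in EpiLC, fewer in EpiLC in every line. More Tet2 contacts reached 5 in ESC columns only than in EpiLC columns only, so the listing favoured a higher value in ESC.

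Tet3 had 9 contacts, 5 in its own gene body and 4 towards Clec4f and Cd207, genes of C-type lectins. The contact with the highest mean (chr6:83658784-83661843, intergenic, 218.5 kb upstream) scored 4.45, 5.15, 3.77 and 7.59 in ESC, then 4.26, 4.42, 4.31 and 6.03 in EpiLC. TET_KO was highest at both stages, and the stages overlapped. The farthest, in Cd207 at 233.6 kb, scored 1.17, 2.22, 2.06 and 5.42 in ESC, then 1.95, 2.43, 3.28 and 5.01 in EpiLC. There only TET_KO reached 5, at both stages.

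In its own gene, the Tet3 contact 78.7 kb downstream (chr6:83362360-83363719) scored 7.62, 5.16, 5.51 and 6.36 in ESC, then 2.58, 3.26, 4.36 and 4.95 in EpiLC. Every ESC column was above 5 and every EpiLC column below it, a difference of -0.53 ± 0.21 (limma adjusted p 0.219), which was -0.35 without DNMT_WT. The contact 10.47 kb away scored 3.84, 5.25, 3.53 and 3.93 in ESC, then 2.04, 2.62, 2.85 and 2.89 in EpiLC, again without overlap, with a difference of -0.50 ± 0.27 (limma adjusted p 0.357). Contacts at 5 or more numbered 1, 5, 1 and 7 in ESC, then 0, 0, 0 and 2 in EpiLC: 3 of the 4 EpiLC columns had none. The promoter's value was 1.95, 2.18, 1.98 and 2.38 in ESC, then 1.65, 1.75, 1.80 and 2.01 in EpiLC. The mean was 2.12 ± 0.20 (SD, n = 4 columns) in ESC and 1.81 ± 0.15 (SD, n = 4) in EpiLC, a difference of -0.32 ± 0.11 (limma adjusted p 0.0745), lower in EpiLC in all 4 lines. TET_KO EpiLC still lay above 2 of the ESC columns, so the stages overlapped. Most Tet3 contacts reached 5 in ESC columns only, so the listing favoured a higher value in ESC.

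Tdg, the glycosylase, had 3 contacts from the shortest fragment of the 10 (chr10:82629487-82631130, 1644 bp). The contact with the captured promoter fragment of Glt8d2, 60.4 kb downstream, scored 4.77, 1.67, 5.36 and 4.29 in ESC, then 1.84, 3.99, 3.5 and 4.63 in EpiLC. The contact 337.3 kb upstream, in LOC102635990 near Zfp938, scored 2.95, 1.98, 0.126 and 1.26 in ESC, then 2.71, 1.39, 6.96 and 6.17 in EpiLC, high in the EpiLC columns of the 2 TET lines. Neither differed between stages past the threshold, with limma adjusted p of 0.772 and 0.355.

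The third Tdg contact was the only one between chromosomes. It joined Tdg to a 428 bp fragment in Eif5, a translation initiation factor gene, on chromosome 12 (chr12:111539463-111539890). It scored 0 in DNMT_WT ESC and 2.48 in TET_KO ESC, and 8.65, 9.08 and 9.40 in DNMT_WT, DNMT_KO and TET_KO EpiLC, with no score in the other 3 columns. The 8 other promoters listing this fragment (Glt8d2, Hcfc2, Nfyb, Txnrd1, Chst11, Zfp938, Gm15608 and Gm10778) all lay on chromosome 10 within 0.982 Mb of Tdg. The position of this fragment in the build could not be checked here, so whether the scores measure a contact between chromosomes was not tested.

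No contact or promoter of these genes passed the test between TET_KO and TET_WT. In this comparison the 2 stages are the only repeats of a line. In limma's fit 0 of 88 contacts passed (0.0188% of all did), and at an unadjusted p under 0.05 limma found 0 higher and 6 lower in TET_KO, against 3.8% and 3.68% of all contacts, 7.49% together. The median difference was -0.09 over the 88 contacts and -0.01 over all. Of the 8 promoters 0 passed (0.21% of all did), and limma's unadjusted p was under 0.05 for Zfp57 alone, which was lower (8.36% of all were higher and 6.56% lower at that level, 14.9% together). For scale, the wild-type lines TET_WT and DNMT_WT differed past the threshold at 0 of the 88 contacts, 0.0159% of all contacts, and at 0 of the 8 promoters, 0.0191% of all. At an unadjusted p under 0.05 limma found 3 contacts higher and 1 lower in TET_WT, against 3.41% and 3.24% of all (6.65% together). It found 0 promoters higher and 1 lower (Dnmt3b), against 3.65% and 4.33% of all (7.98% together).

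Of the knocked-out genes, Tet3 had higher contact scores in TET_KO. All 9 Tet3 contacts scored higher in TET_KO than in TET_WT at both stages, 18 of 18 comparisons, on the deposited scores and on the normalised values. Of all contacts, 30.9% were higher in TET_KO at both stages, and 2 of 694 promoters with 9 tested contacts (0.288%) had all of them so. The Tet3 contacts at 51.82, 189.95, 203.31 and 233.62 kb reached 5 in TET_KO columns only. A higher TET_KO score in those columns was set by the listing, and contacts of the same promoter are not independent repeats. The median Tet3 score was 5.77 in TET_KO and 3.53 in TET_WT in ESC, and 4.15 and 3.06 in EpiLC. The promoter's difference was 0.30 ± 0.16 with a limma adjusted p of 0.377. DNMT_KO was also above DNMT_WT in 15 of 18 Tet3 comparisons, with a promoter difference of 0.17 ± 0.16 (limma adjusted p 0.9995). At both stages 6 of the 9 contacts were higher in DNMT_KO, against 21.4% of all contacts. The Tet3 contacts at 10.47 and 50.01 kb reached 5 in DNMT_KO ESC only. A higher DNMT_KO score in ESC was set there by the listing.

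At Tet2 the contacts inside the gene were lower in TET_KO. All 4 were lower in TET_KO at both stages, 8 of 8 comparisons, on both scales, while 25.9% of all contacts were lower at both stages. The largest was the fragment 77.7 kb away (chr3:133466230-133469123), which scored 2.68, 4.12, 6.16 and 0.623 in ESC, then 2.6, 2.25, 3.55 and 0.172 in EpiLC. TET_KO was the lowest line at both stages and the only one under 1. The difference of -1.95 ± 0.51 had a limma adjusted p of 0.333. DNMT_KO was higher than DNMT_WT in 5 of the same 8 comparisons, and at both stages for 1 of the 4 contacts (21.4% of all contacts). The contact 70.42 kb away reached 5 in DNMT_KO ESC only, so its higher DNMT_KO score in ESC was set by the listing. The contacts 9.65 and 77.7 kb away reached 5 in TET_WT ESC only, so a lower TET_KO score in ESC was set there by the listing. Over all 18 contacts Tet2 was lower in TET_KO in 26 of 36 comparisons, and its promoter's difference was -0.24 ± 0.15 (limma adjusted p 0.49). How the Tet2 and Tet3 differences compare with each other was not tested.

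**Figure D4:**
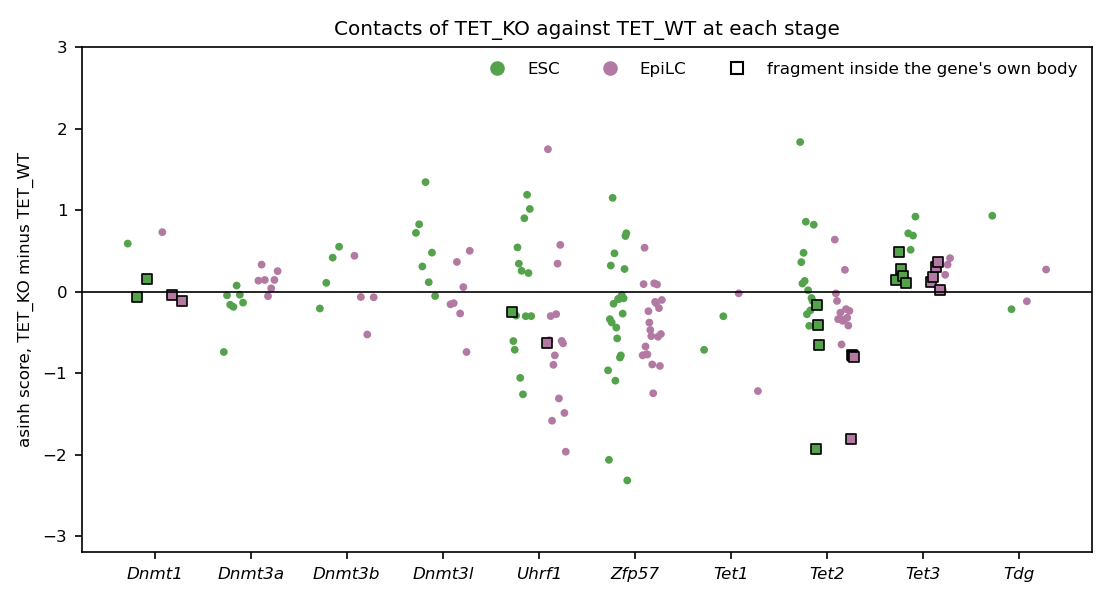
Difference of the asinh CHiCAGO score between TET_KO and TET_WT (y axis) for each contact in ESC (green) and EpiLC (purple), by gene; outlined squares lie in the gene's own body. All 18 Tet3 points lie above 0, and the 8 Tet2 squares lie below it.

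Among the partners, Zfp57 and Uhrf1 had lower promoter values in TET_KO, neither past the threshold. Zfp57 was lower in 32 of 42 comparisons, and 11 of the 21 contacts scored in all columns were lower at both stages. Of all contacts, 25.9% were lower at both stages. The Zfp57 contacts 28.5, 79.47, 80.67, 91.12, 92.68, 93.59 and 1021.25 kb upstream reached 5 in TET_WT EpiLC only. There a lower TET_KO score in EpiLC was set by the listing. The contact 112.87 kb upstream reached 5 in TET_KO EpiLC only. The median Zfp57 score was 3.03 in TET_KO against 3.88 in TET_WT in ESC, and 3.41 against 5.29 in EpiLC. The promoter's difference was -0.38 ± 0.16 (limma adjusted p 0.279). Uhrf1 was lower in 20 of 30 comparisons, and 5 of its 15 contacts were lower at both stages, against the same 25.9%. Its median score was 1.57 in TET_KO against 2.22 in TET_WT in ESC, and 3.11 against 5.97 in EpiLC. The Uhrf1 promoter's difference was -0.37 ± 0.22 (limma adjusted p 0.443). In ESC, TET_KO was higher at 7 of the 15 Uhrf1 contacts, and in EpiLC at 3. The Uhrf1 contacts at 272.42, 343.83 and 407.36 kb reached 5 in a TET_WT column only, and that at 195.23 kb in TET_KO EpiLC only. At both genes TET_WT EpiLC was the column with the most contacts at 5 or more, and its part in these differences was not tested.

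Contacts that were at 5 or more in 1 genotype and under 3 in the other were counted per stage. Between the TET lines, 5 were on in TET_KO alone in ESC (7.09% of all contacts were) and 8 in TET_WT alone (5.22% of all), out of 89 scored. In EpiLC 2 were on in TET_KO alone (7.29% of all) and 9 in TET_WT alone (5.9% of all), out of 88, and 6 of those 9 belonged to Zfp57 and 3 to Uhrf1. No contact was on in 1 genotype and off in the other at both stages, in either direction, where 0.664% of all contacts were on in TET_KO alone at both stages and 0.325% in TET_WT alone. The 2 Tet2 contacts on in TET_WT ESC alone were those 9.65 and 77.7 kb away, both in the Tet2 body.

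No contact or promoter passed the test between DNMT_KO and DNMT_WT either. In limma's fit 0 of 88 contacts passed (0.0049% of all did), and at an unadjusted p under 0.05 limma found 2 higher and 1 lower in DNMT_KO, against 1.99% and 2.2% of all contacts, 4.2% together. The median difference was 0.07 over the 88 contacts and -0.003 over all. Of the 8 promoters 0 passed, as did 0 of all 15677 (0%), and limma's unadjusted p was under 0.05 for 0 of the 8, against 3.32% of all promoters, 1.66% higher and 1.65% lower. All 8 adjusted p were 0.9995, and the differences ran from -0.24 ± 0.22 at Uhrf1 to 0.17 ± 0.16 at Tet3. At the 3 genes knocked out in DNMT_KO the promoter differences were 0.02 ± 0.20 for Dnmt1, 0.02 ± 0.14 for Dnmt3a and 0.12 ± 0.13 for Dnmt3b.

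The 3 contacts under an unadjusted p of 0.05, named after their values were seen, belonged to the partners. They were the Uhrf1 contacts in Safb at 287.5 kb (0.78) and in Catsperd at 354.1 kb (-1.23), and the Zfp57 contact with Rpp21 (1.18). In ESC 5 contacts were on in DNMT_KO alone (6.62% of all) and 2 in DNMT_WT alone (7.07% of all), out of 90. In EpiLC 1 was on in DNMT_KO alone (5.1% of all) and 5 in DNMT_WT alone (5.14% of all), out of 91. None was so at both stages, against 0.192% and 0.184% of all.

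Of 44 other genes of DNA methylation and its removal, 31 had a captured fragment in the table, and 20 of these could be tested as promoters. Between the stages 1 rose and 0 fell by limma's adjusted p, a share no higher than the 8.87% of all promoters. The one that rose was Zbtb4, a zinc finger protein that binds methylated CpG, with 29 contacts and a difference of 0.34 ± 0.09 (limma adjusted p 0.0273). It was higher in EpiLC in all 4 lines. The call depended on the setting: 0 of these promoters passed when any 1 line was left out, with the wild-type lines alone, with a minimum of 1 contact or by the number of contacts at 5 or more. Those fits also called fewer of all promoters, from 252 higher and 333 lower without DNMT_WT to 0 and 0 with the wild-type lines alone. The main fit called 585 higher and 806 lower. Without scaling, with columns divided by their mean, with log2, with scores in at least 6 columns and within 1 Mb, 1 of these promoters passed. Of the 234 tested contacts of these genes 0 passed, and at an unadjusted p under 0.05 limma found 33 higher and 7 lower in EpiLC, where 8.35% and 8.26% of all contacts were so. Their median difference was 0.11, against 0.02 for the 10 genes and -0.0049 over all contacts.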

How the data were processed

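The deposited table holds CHiCAGO scores made by the authors, 1 score for each promoter fragment and contacted fragment in 8 columns, 1 per group of line and stage. The submitters' processing notes name Trim Galore 0.6.5, cutadapt 2.3 and the build GRCm38. Aligner, CHiCAGO version and the way the 2 replicates of a group were combined: not given in the sources used here. Depth per sample is unknown too. The p-values measure the spread between lines and stages, not between replicates. Since each knock-out derives from its wild type, the lines are not fully independent.

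Members were found by the name on the captured fragment. Genes at the other end were read from the table or from RefSeq genes of GRCm38.p6. Of 14796 fragments with a matched symbol, 98.2% lay within 2 kb of that gene. Promoter sequences came from RefSeq (GRCm38.p6). Distances run between fragment midpoints.

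Scores were asinh-transformed and quantile-normalised between columns. The tests left out 15344 contacts (5.88%) in which 1 or more columns had no score. limma 3.58.1 in R 4.3.3 (lmFit, eBayes with trend) was fitted to stage and line over all complete contacts on 1 chromosome, and over promoter means of at least 3 complete contacts. This left 3 residual degrees of freedom before eBayes. Benjamini-Hochberg adjustment covered all features of a contrast. The code was tested on simulated data. The test planned for values per sample was replaced by its version for 1 column per group.

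Contacts named per promoter were those past the threshold, the one with the highest mean score and the farthest at 5 or more in at least 2 columns. Others are named because their stages did not overlap, they lacked a score or they differed in the TET lines, and were chosen after their values were seen. The members and lists were chosen with earlier results of these data known. Alternatives were other scalings, log2, lines left out, distance, thresholds and the wild-type lines alone.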

Additional observations from a re-analysis of the deposited data

Results flagged for a closer look

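In 60 groups of 4 columns (1 stage, all lines), 3 had a column far from the other 3. Chance flags about 1 in 20 such groups where values are continuous and normally distributed. That rate does not hold for counts of contacts, where a column that differs from 3 equal ones is always flagged. The number of Dnmt1 contacts at 5 or more in EpiLC was 1 in TET_KO and 0 in the other lines. The number of Tet3 contacts at 5 or more in EpiLC was 2 in TET_KO and 0 in the other lines. The Dnmt3b contact 54.3 kb upstream scored 3.10 in TET_WT ESC, against 2.41 to 2.49 in the other ESC columns.

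The Dnmt1 promoter's value went opposite ways in the 2 families of lines. From ESC to EpiLC it differed by -0.44 in DNMT_WT and -0.14 in DNMT_KO, and by 0.38 in TET_WT and 0.44 in TET_KO. The difference between the families was not tested.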

How the results depend on the processing

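No paired analysis was possible because the columns carry no replicate numbers; the stages of a line are paired in every fit of the stage difference through the line block. Under every alternative run, 0 member contacts passed the threshold in any contrast. Several of these runs could hardly call a member, because few of all contacts passed between the stages. Without DNMT_WT 3 higher and 3 lower passed, without TET_KO or with the wild-type lines alone 0 and 0, and with scores in at least 6 columns 4 and 1. Of the member promoters, 1 passed between the stages without scaling between columns (Uhrf1, 0.55, limma adjusted p 0.0438), and 0 passed elsewhere, lines left out in turn included. Without scaling, 905 of all 15677 promoters passed as higher in EpiLC and 442 as lower, against 585 and 806 in the main fit. The median difference over all promoters was then 0.05, against -0.01 in the main fit. Of 443 values of single promoters and contacts under alternatives, 12 reversed, and none of these was past the threshold in either fit. For the stages these were Dnmt1 at -0.0687 without TET_KO, -0.0493 without TET_WT, -0.0309 with the wild-type lines alone and -0.5 by the number of contacts at 5 or more, and Dnmt3b at 0.0367 without TET_KO and 0.25 by number. Leaving out lines, the stage difference ran from -0.0687 to 0.226 at Dnmt1 and from -0.111 to 0.0367 at Dnmt3b. For DNMT_KO they were Dnmt1 at -0.0131 without scaling and -0.5 by number, Dnmt3a at -0.00275 without scaling, and Dnmt3l at -0.102 with scores in at least 6 columns and -0.0963 without TET_KO (range -0.0963 to 0.0721). For TET_KO it was Dnmt3a at 0.5 by number. The cause was not tested. Contacts on in 1 genotype alone, summed over stages, moved with the thresholds. With 7 or more against under 3 they were 1 in TET_KO, 3 in TET_WT, 0 in DNMT_KO and 1 in DNMT_WT. Of all contacts, 1.42% in ESC and 1.34% in EpiLC were so in TET_KO, 0.77% and 0.99% in TET_WT, 1.66% and 0.868% in DNMT_KO, and 1.22% and 0.969% in DNMT_WT. With 5 or more against under 1 the members numbered 1, 4, 2 and 3 in the same order. Of all contacts 1.56% and 1.57%, 0.89% and 1.25%, 1.89% and 1.06%, and 1.37% and 1.23% were so. Scores near 5 and unknown depth limit all single contacts: 39 of the 91 never reached 6.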
